A study of Homo sapiens with 20 samples.

Results

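GATA4, GATA5, GATA6, HNF4A, FOXA2, SOX2, RUNX3 and KLF5, transcription factors of the stomach and of embryonic endoderm, were examined in 5 gastric cancer cell lines. They were taken by gene symbol from the 60232 genes of the deposited table, in all its 20 libraries, and all 8 were among the 27350 genes tested. Each line was treated for 72 h with decitabine (DCB), a cytidine analogue that traps DNA methyltransferases in DNA, or with dimethyl sulfoxide (DMSO) as the control, with 2 libraries per line and treatment. The DCB group of each line is set against the DMSO group of the same line. All lines are labelled gastric cancer of wild type genotype, and each is a single established line. YCCEL1 and SNU719 carry Epstein-Barr virus (EBV+), and AGS, HGC27 and SNU16 do not (EBV−). By the study's account, YCCEL1, SNU719 and AGS have the CpG island methylator phenotype (CIMP+), an extensive methylation of promoters, and HGC27 and SNU16 lack it (CIMP−). The labels give EMEM as the medium of YCCEL1 and HGC27 and RPMI for the other lines, and the study's methods give RPMI for all.

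GATA4, GATA5 and GATA6 are zinc finger factors that bind GATA sites and act early in the gut tube. FOXA2 is a pioneer factor that opens chromatin in endoderm, and HNF4A, a nuclear receptor, sits downstream and drives genes of liver, stomach and intestine. SOX2 marks the foregut and stomach, in contrast to the intestinal CDX factors. KLF5 is a growth-promoting zinc finger factor of gut epithelium. RUNX3 binds DNA with its partner CBFB, is best known in blood cells, and is a classic example of a gene whose promoter is methylated in gastric cancer.

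The CG pairs before the start of these genes are the sites where DNA methyltransferases act, so the sequences of some of them are shown. Each is the 250 bases before a start in RefSeq (GRCh38.p14), 5′ to 3′ on the strand of the gene, with every CG pair in capitals. RUNX3 has 2 starts 34734 bases apart, and both are shown because it rose in 3 lines. GATA6 and its divergent long noncoding RNA GATA6-AS1 are shown because GATA6-AS1 was called higher in several lines and GATA6 in none. SOX2 is shown because it fell in several lines.
RUNX3, upstream start, chr1:24965011-24965260, minus strand: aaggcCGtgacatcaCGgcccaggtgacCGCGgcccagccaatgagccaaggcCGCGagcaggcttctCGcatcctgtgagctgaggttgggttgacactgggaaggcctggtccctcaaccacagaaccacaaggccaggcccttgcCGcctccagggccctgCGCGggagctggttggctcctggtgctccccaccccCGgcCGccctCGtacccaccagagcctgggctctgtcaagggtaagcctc
RUNX3, downstream start, chr1:24930277-24930526, minus strand: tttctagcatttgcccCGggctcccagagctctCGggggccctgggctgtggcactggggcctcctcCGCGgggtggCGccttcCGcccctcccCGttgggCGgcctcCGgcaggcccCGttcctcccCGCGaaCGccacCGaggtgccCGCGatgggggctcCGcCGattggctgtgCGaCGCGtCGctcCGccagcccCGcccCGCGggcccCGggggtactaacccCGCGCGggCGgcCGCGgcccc
GATA6, chr18:22169339-22169588, plus strand: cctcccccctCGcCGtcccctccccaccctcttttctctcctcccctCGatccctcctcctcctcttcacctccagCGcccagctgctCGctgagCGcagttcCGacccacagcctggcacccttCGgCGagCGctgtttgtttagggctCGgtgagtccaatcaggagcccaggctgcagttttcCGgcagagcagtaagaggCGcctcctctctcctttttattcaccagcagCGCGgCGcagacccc
GATA6-AS1, chr18:22168969-22169218, minus strand: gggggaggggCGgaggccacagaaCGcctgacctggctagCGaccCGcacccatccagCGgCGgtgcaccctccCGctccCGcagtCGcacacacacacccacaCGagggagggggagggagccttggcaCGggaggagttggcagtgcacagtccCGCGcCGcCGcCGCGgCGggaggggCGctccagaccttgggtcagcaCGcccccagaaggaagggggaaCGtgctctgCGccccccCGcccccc
SOX2, chr3:181711675-181711924, plus strand: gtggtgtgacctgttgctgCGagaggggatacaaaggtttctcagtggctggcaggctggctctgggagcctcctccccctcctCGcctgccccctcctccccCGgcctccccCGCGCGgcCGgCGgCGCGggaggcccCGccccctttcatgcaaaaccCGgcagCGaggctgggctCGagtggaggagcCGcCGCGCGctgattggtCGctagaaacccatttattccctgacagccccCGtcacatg

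The window before the downstream RUNX3 start held 33 CG pairs, more than 91.9% of the 35116 RefSeq promoter windows of the same length. The upstream RUNX3 window held 13, more than 53.4% of windows. The GATA6-AS1 window held 23 and the GATA6 window 16, with their RefSeq starts 621 bases apart on opposite strands, and the SOX2 window held 20. HNF4A had 2 windows with 8 CG pairs each, and KLF5 had an upstream window with 3 and a downstream window with 27. The search was for the letters CG, which read the same on both strands, and 93.9% of all windows held at least 1, with a median of 11. Windows were found for 5 of the 8 factors, and none is given for GATA4, GATA5 and FOXA2. The number of CG pairs says nothing of their methylation, which was not measured here, and the gene-level values do not tell which start was used.

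**Figure D1:**
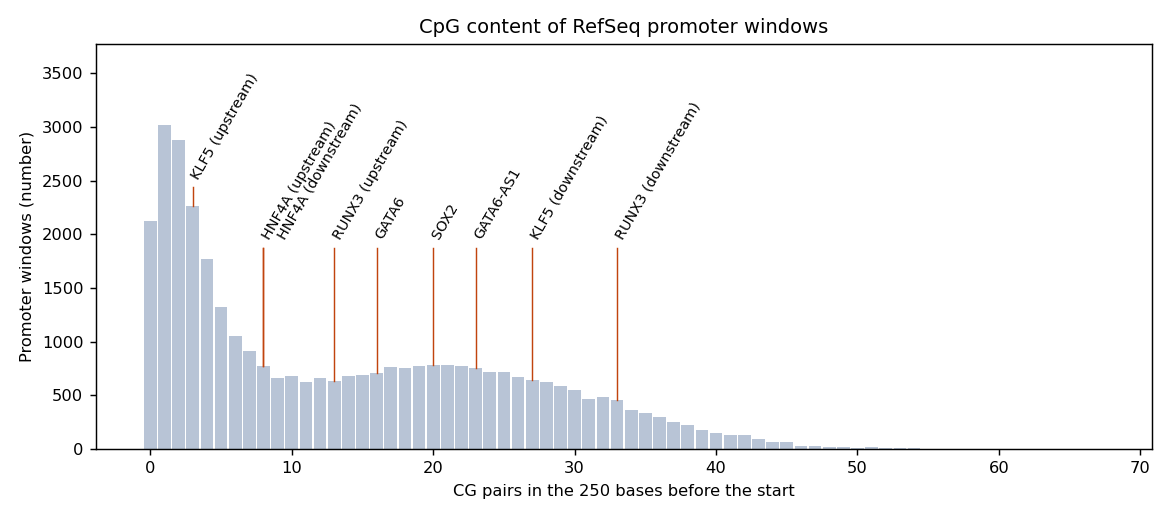
Number of RefSeq promoter windows (y axis) by the CG pairs in the 250 bases before the start (x axis), over 35116 windows. Lines mark the windows of the factors and of GATA6-AS1: the downstream RUNX3 window lies far to the right with 33, the 2 HNF4A windows sit together at 8, and the upstream KLF5 window is the poorest with 3.

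Values below are the authors' normalized estimated counts, with the 2 libraries of a group in the order of their replicate numbers. Library depth was estimated by taking the most frequent low value above 0 in each library as the step of 1 read. It was 7101022 to 10730970 read equivalents. In each library 34.8% to 44.5% of low values were whole multiples of this step, so the read numbers below are approximate. Replicate libraries correlated across genes at 0.969 to 0.980. Fold changes are differences of mean log2(value + 1) from limma, fitted over all 27350 genes and all 20 libraries, and understate the change of genes near 0. A factor passed at a Benjamini-Hochberg adjusted p below 0.05 over all genes. No source states that both libraries of a group are separate cultures, and p-values therefore cover the spread between libraries alone, which may be technical. In RNA from a whole culture, fewer cells expressing a gene and less RNA per cell cannot be told apart.

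HGC27 stood apart from the other lines in its cell type markers. The summed level of 8 epithelial markers was 686 to 831 in DCB-treated HGC27 and 267 to 309 in DMSO, whereas it was at least 38340 in every library of the other 4 lines. The summed level of 8 fibroblast markers was 51822 to 54632 in DCB-treated HGC27 and 48623 to 49139 in DMSO, and at most 2287 elsewhere. EPCAM, CDH1 and KRT19 were low but not at 0 in HGC27, and CLDN7 was at least 100.7 in every library of the series. These levels do not test the label of HGC27 as gastric cancer. Of 7 leukocyte markers, PTPRC, CD3E, MS4A1 and CD14 were at most 8.77 in any library. LYZ, which gastric epithelium also makes, reached 71538. The 4 endothelial markers were at most 37.1. In AGS the summed epithelial markers were 55576 to 58059 in DCB and 38340 to 38443 in DMSO, and the fibroblast markers 2152 to 2287 in DCB and 476 to 526 in DMSO. The part of these shifts in the results below was not tested.

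Across the 40 pairs of factor and line, 15 passed, 6 higher and 9 lower in DCB. RUNX3 was the sole factor to pass with an absolute log2 fold change above 2, which it did in 3 lines. Of all genes tested, 7.99% were higher past both limits in YCCEL1, 6.38% in SNU719, 9.02% in AGS, 4.95% in HGC27, 2.31% in SNU16 and 3.4% over the 5 lines. The same limits were passed as higher by 2.78% of genes in the difference between EBV+ and EBV− lines and 3.68% in that between CIMP+ and CIMP− lines. GATA4, SOX2, FOXA2, GATA6 and KLF5 each moved by less, in 1 to 4 lines, and GATA5 and HNF4A passed in no line. In YCCEL1, 1 of 8 factors was higher and 1 lower, where 14.6% of all genes tested were called higher and 6.93% lower. In SNU719 the counts were 1 higher and 3 lower, against 13.5% and 7.64% of all genes. In AGS they were 1 higher and 3 lower, against 18.5% and 9.13%. In HGC27, 2 were higher and 1 lower, against 14.7% and 9.03%, and in SNU16, 1 higher and 1 lower, against 4.5% and 2.34%. The median log2 fold change of the 8 factors was −0.10 in YCCEL1, −0.20 in SNU719, −0.37 in AGS, 0.09 in HGC27 and −0.09 in SNU16. The median of all genes was 0.09, 0.11, 0.12, 0.04 and 0.01 in the same lines.

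**Figure D2:**
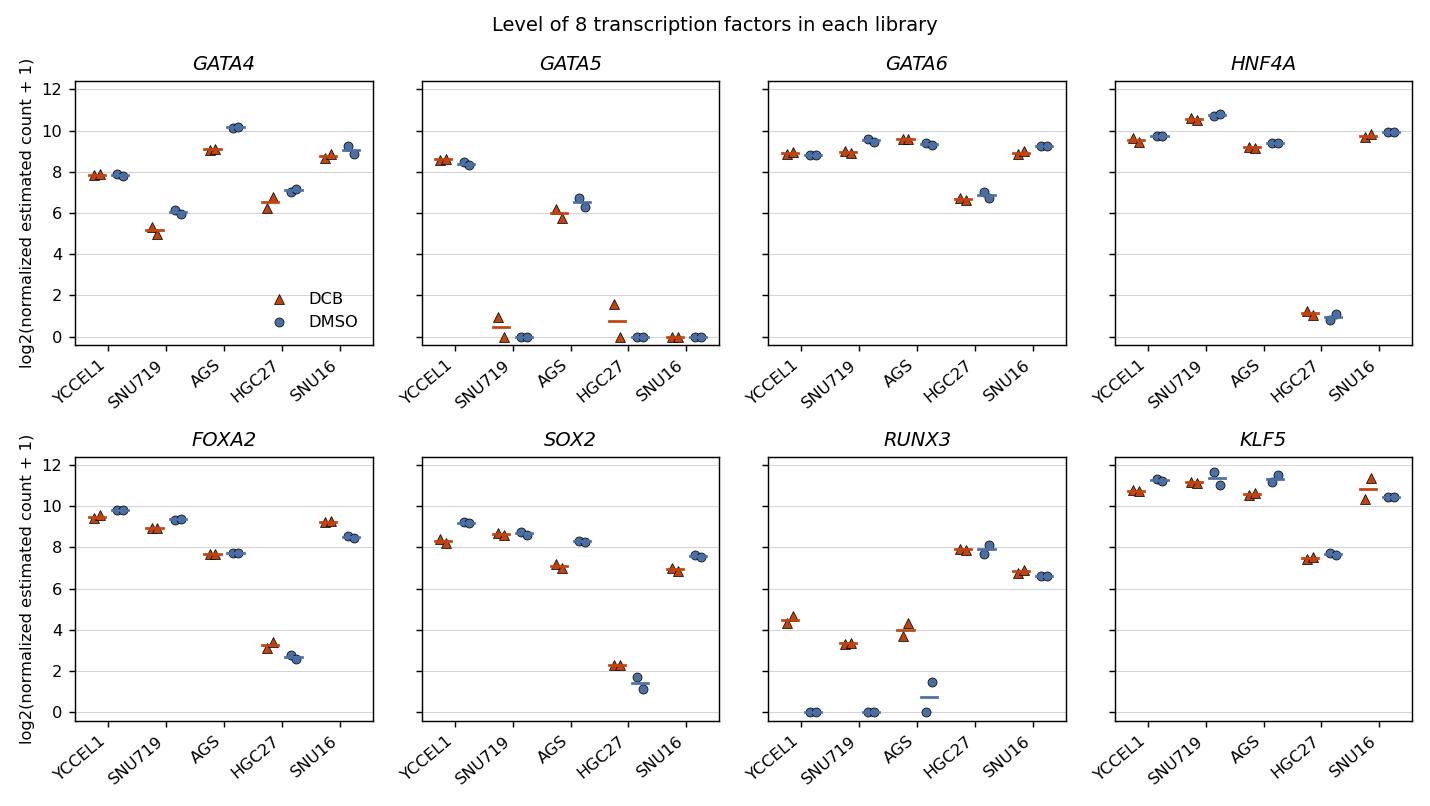
Level of each factor in each of the 20 libraries, as log2(normalized estimated count + 1) on the y axis, by line on the x axis. Triangles are DCB and circles DMSO libraries, with a bar at the mean of 2. RUNX3 is at or near 0 in DMSO in YCCEL1, SNU719 and AGS and above 3 in DCB, while HNF4A, FOXA2 and SOX2 stand far lower in HGC27 than in the other lines.

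**Figure D3:**
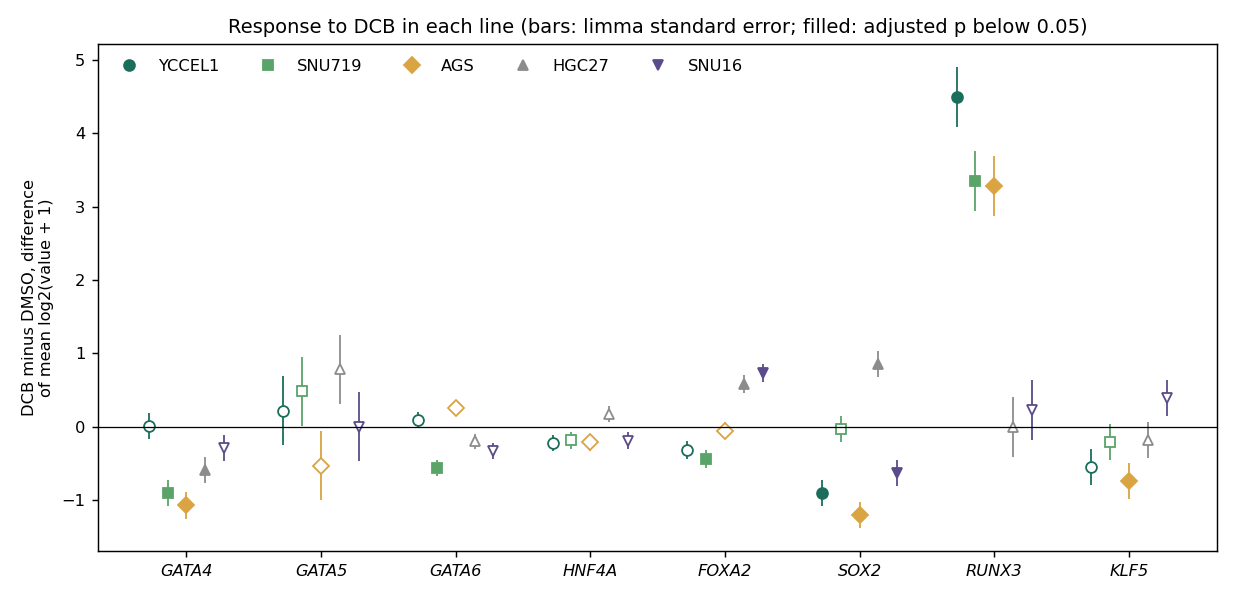
Response of each factor to DCB in each line, as the difference of mean log2(value + 1) between DCB and DMSO libraries, with limma standard errors as bars. Filled symbols passed an adjusted p below 0.05: RUNX3 in YCCEL1, SNU719 and AGS lies above 3, and the other passing points lie between −1.20 and 0.86. The RUNX3 points of YCCEL1 and SNU719 rest on DMSO libraries at 0, so their height depends on the pseudocount of 1.

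RUNX3 (ENSG00000020633, chr1:24899511-24965121, GRCh38) was silent or nearly so in DMSO in the 3 CIMP+ lines and appeared with DCB in each. It was 18.9 and 24.5 in DCB-treated YCCEL1, against 0 and 0 in DMSO, where it was listed at 0 (adjusted p = 2.82e-06). It was 9.14 and 9.33 in DCB-treated SNU719, against 0 and 0 in DMSO, again listed at 0 (adjusted p = 4.53e-05). No fold is given against groups at 0. In AGS it was 12.0 and 19.2 in DCB-treated cells, against 0 and 1.80 in DMSO (log2 fold change 3.28, SE 0.409, adjusted p = 3.81e-05). All DCB libraries of these lines lay above all their DMSO libraries, and the levels reached stayed far below those of the CIMP− lines.

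In the CIMP− lines RUNX3 was already expressed and no change was detected. It was 241 and 235 in DCB-treated HGC27, against 203 and 281 in DMSO (log2 fold change −0.00, SE 0.409, adjusted p = 1), and the DMSO libraries lay on both sides of the DCB libraries. It was 108 and 120.0 in DCB-treated SNU16, against 95.8 and 97.9 in DMSO (log2 fold change 0.23, SE 0.409, adjusted p = 0.879), with both DCB libraries slightly higher. The response of RUNX3 differed among the 5 lines (moderated F test, adjusted p = 8.4e-05), between EBV+ and EBV− lines (adjusted p = 0.000136) and between CIMP+ and CIMP− lines (adjusted p = 1.15e-05). These tests took the libraries as replicates. With the lines as replicates the adjusted p was 0.761 for EBV and 0.239 for CIMP.

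The counts behind RUNX3 were small. Expressed in read equivalents, about 43 reads in DCB stood against 0 in DMSO in YCCEL1, 22 against 0 in SNU719, and 34 against 2 in AGS. For AGS the ratio per depth was 15.7, with an exact 95% counting interval of 4.01 to 135 that covers counting error alone. When the 4 AGS libraries were fitted alone, the adjusted p of RUNX3 was 0.0897. RUNX3-AS1, a long noncoding RNA on the opposite strand inside RUNX3, reached at most 3.93 in any library.

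The RUNX relatives did not share one pattern. RUNX1, a regulator of blood stem cells, was 388 and 418 in DCB-treated SNU719, against 247 and 279 in DMSO (log2 fold change 0.62, SE 0.192, adjusted p = 0.0344), and passed in no other line. RUNX2, the bone regulator, was 41.4 and 60.3 in DCB-treated YCCEL1, against 1.59 and 7.33 in DMSO (log2 fold change 3.46, SE 1.00, adjusted p = 0.0242). In AGS RUNX2 was 4.12 and 97.9 in DCB-treated cells, 2 very unequal libraries, and listed at 0 in DMSO (adjusted p = 0.00394). CBFB, the shared partner, fell in AGS (log2 fold change −0.70, SE 0.112, adjusted p = 0.000301) and rose in HGC27 (log2 fold change 0.55, SE 0.112, adjusted p = 0.00222). Of 7 RUNX relatives, partners and TLE corepressors, 1 was higher and none lower over the 5 lines. That list had a median log2 fold change of −0.05, or 0.03 with equal library totals, against 0.15 over all genes, of which 17.9% were called higher and 6.94% lower.

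**Figure D4:**
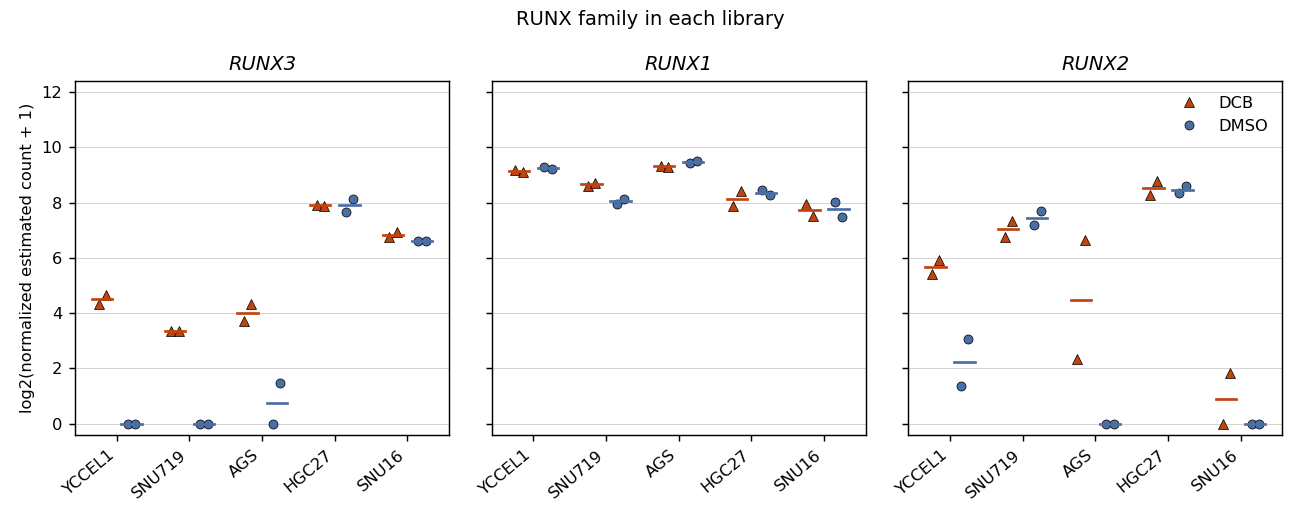
Levels of RUNX3, RUNX1 and RUNX2 in each library, as log2(normalized estimated count + 1) on the y axis, by line on the x axis, with triangles for DCB, circles for DMSO and a bar at the mean of 2. RUNX1 stays between 7 and 10 in all 20 libraries, whereas RUNX3 and RUNX2 run between 0 and 9 across the lines.

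GATA4 (chr8:11676959-11760002) fell in 3 of the 5 lines. In AGS, the line with its highest DMSO level, it was 532 and 554 in DCB-treated cells, against 1120.1 and 1163 in DMSO (log2 fold change −1.07, SE 0.180, adjusted p = 0.000497). It was 39.1 and 30.7 in DCB-treated SNU719, against 70.3 and 61.0 in DMSO (log2 fold change −0.90, SE 0.180, adjusted p = 0.00254). It was 75.3 and 110.1 in DCB-treated HGC27, against 131 and 145 in DMSO (log2 fold change −0.59, SE 0.180, adjusted p = 0.0294). The HGC27 call was lost without either DMSO library (adjusted p = 0.0592 and 0.142), without the lower DCB library (log2 fold change −0.32, adjusted p = 0.292) and with equal library totals (−0.46, adjusted p = 0.0841). In the 4 libraries of the line alone the adjusted p was 0.258 in HGC27 and 0.101 in SNU719. In these 3 lines every DCB library lay below every DMSO library, with a change of the mean of −52.4% in AGS, −46.8% in SNU719 and −32.6% in HGC27.

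In YCCEL1 GATA4 was 228 and 235 in DCB-treated cells, against 238 and 222 in DMSO (log2 fold change 0.01, SE 0.180, adjusted p = 1). It was 411 and 459 in DCB-treated SNU16, against 608 and 464 in DMSO (log2 fold change −0.29, SE 0.180, adjusted p = 0.452), with both DCB libraries lower but the DMSO libraries unequal. GATA4 and RUNX3 were the factors that passed over the 5 lines, where 17.9% of all genes were called higher and 6.94% lower. For GATA4 the log2 fold change over the lines was −0.57 (SE 0.124, adjusted p = 0.00281), and its response differed among lines (adjusted p = 0.0215). With lines as replicates the adjusted p over the 5 lines was 0.237.

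GATA6 (chr18:22169589-22202528) passed in SNU719 among the 5 lines, where it fell. It was 513 and 479 in DCB-treated cells, against 758 and 706 in DMSO (log2 fold change −0.56, SE 0.103, adjusted p = 0.00138). It was 779 and 766 in DCB-treated AGS, against 672 and 621 in DMSO (log2 fold change 0.26, SE 0.103, adjusted p = 0.0849), and 461 and 512 in DCB-treated SNU16, against 606 and 616 in DMSO (log2 fold change −0.33, SE 0.103, adjusted p = 0.0794). Neither of these passed, though the groups did not overlap. YCCEL1 and HGC27 moved by 0.10 and −0.19 on the log2 scale. The response differed among the lines (adjusted p = 0.00346).

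In AGS and YCCEL1 both DCB libraries of GATA6 lay above both DMSO libraries, but GATA6 passed as higher in no line. GATA6-AS1, transcribed away from GATA6 on the opposite strand, passed as higher in every line but SNU16. It was 355 and 499.7 in DCB-treated AGS, against 136 and 143 in DMSO (log2 fold change 1.59, SE 0.255, adjusted p = 0.000329). It was 87.2 and 102 in DCB-treated YCCEL1, against 53.5 and 39.3 in DMSO (log2 fold change 1.03, SE 0.255, adjusted p = 0.0101). It also rose in SNU719, to 61.6 and 49.6 in DCB-treated cells, against 33.9 and 22.8 in DMSO (log2 fold change 0.97, SE 0.255, adjusted p = 0.0145), the line in which GATA6 fell. In HGC27 it was 10.3 and 13.6 in DCB-treated cells, against 6.0 and 5.37 in DMSO (log2 fold change 0.94, SE 0.255, adjusted p = 0.0151). In SNU16 the log2 fold change was 0.68 (adjusted p = 0.145), with both DCB libraries higher. Over the 5 lines it was 1.04 (SE 0.141, adjusted p = 4.5e-05), while GATA6 itself was at −0.15 (adjusted p = 0.256). The difference between the 2 genes was not tested.

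In the table's annotation the genes overlap by 290 bases at their heads. That overlap reaches to base 22169878, so the RefSeq window shown for GATA6-AS1 lies inside the gene as annotated there. The submitters' notes and the study's methods name different library kits, and where a kit does not mark the strand, reads from that overlap cannot be told apart. The SOX2-OT, HNF4A-AS1 and RUNX3-AS1 RNAs, which overlap SOX2, HNF4A and RUNX3, stayed at or below 27.6, 1.21 and 3.93 in all libraries.

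**Figure D5:**
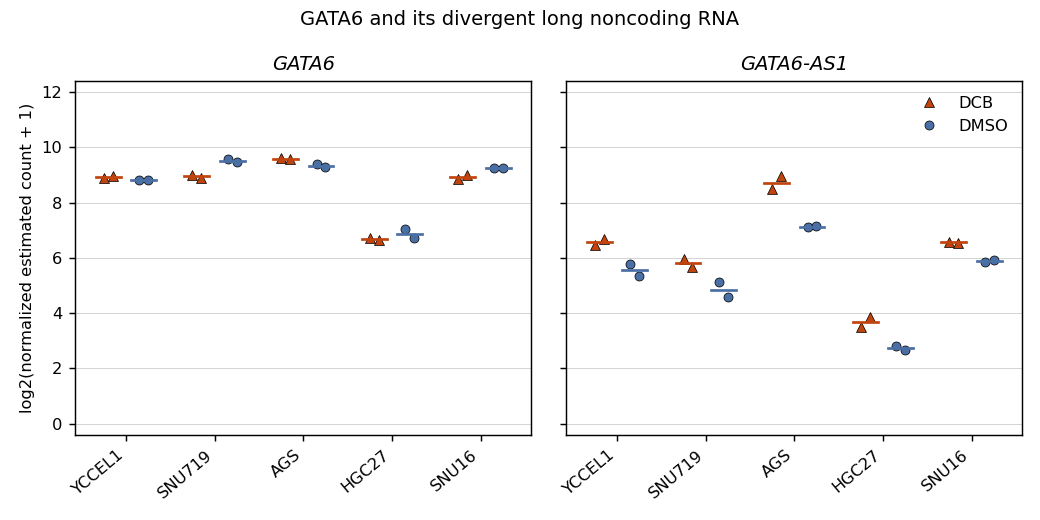
Levels of GATA6 and GATA6-AS1 in each library, as log2(normalized estimated count + 1) on the y axis, by line on the x axis, with triangles for DCB, circles for DMSO and a bar at the mean of 2. The GATA6-AS1 triangles lie above the circles in all 5 lines, whereas those of GATA6 lie above in YCCEL1 and AGS and below in the other 3.

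GATA5 (chr20:62463497-62475995) was expressed above a few reads in YCCEL1 and AGS and passed in no line. It was 385 and 398 in DCB-treated YCCEL1, against 349 and 324 in DMSO (log2 fold change 0.22, SE 0.470, adjusted p = 0.84). It was 72.3 and 53.9 in DCB-treated AGS, against 104 and 78.3 in DMSO (log2 fold change −0.53, SE 0.470, adjusted p = 0.478). In SNU719, HGC27 and SNU16 it was listed at 0 in all DMSO libraries and was at most 1.97 in any DCB library. SNU719, a CIMP+ line, was thus at or near 0 for GATA5 under both treatments.

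Of the other GATA family genes and their cofactors, 2 of 5 tested were higher over the 5 lines and none lower, where 17.9% of all genes were called higher and 6.94% lower. The median log2 fold change was 1.12, against 0.15 over all genes. By line the median was 0.42 in YCCEL1, 0.43 in SNU719, 1.61 in AGS, −0.18 in HGC27 and −0.26 in SNU16. In the same order 2, 2, 3, 0 and 1 were higher, against 14.6%, 13.5%, 18.5%, 14.7% and 4.5% of all genes. In SNU16 1 was lower, where 2.34% of all genes were. The 2 higher over the 5 lines were GATA2, a factor of blood progenitors named after its values were seen, and GATA3, a factor of lymphoid cells and of luminal epithelium. GATA3 was 4.09 and 2.00 in DCB-treated SNU719, against 0 and 0 in DMSO, where it was listed at 0 (adjusted p = 0.0214), and 5.24 and 9.18 in DCB-treated SNU16, against 0 and 1.75 in DMSO (adjusted p = 0.0253). In AGS it was 0.74 and 4.33 in DCB-treated cells, unequal libraries, against 0 and 0 in DMSO (adjusted p = 0.0458). It was highest in YCCEL1, at 55.4 and 52.4 in DCB-treated cells, against 38.2 and 41.7 in DMSO (log2 fold change 0.42, SE 0.556, adjusted p = 0.683). In HGC27 GATA3 was 17.3 and 18.1 in DCB-treated cells, against 24.5 and 33.5 in DMSO (log2 fold change −0.67, SE 0.556, adjusted p = 0.464).

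SOX2 (chr3:181711925-181714436) fell in YCCEL1 and AGS, and narrowly in SNU16. It was 145 and 126 in DCB-treated AGS, against 316 and 309 in DMSO (log2 fold change −1.20, SE 0.177, adjusted p = 0.000163). It was 339.9 and 292 in DCB-treated YCCEL1, against 601 and 573 in DMSO (log2 fold change −0.89, SE 0.177, adjusted p = 0.00226). Every DCB library lay below every DMSO library in both, with a change of the mean of −56.5% in AGS and −46.2% in YCCEL1. It was 126 and 116 in DCB-treated SNU16, against 195 and 182 in DMSO (log2 fold change −0.63, SE 0.177, adjusted p = 0.049), without overlap, but this call sat at the threshold. The adjusted p in SNU16 was 0.058 to 0.0973 under 6 other settings. It was above 0.05 when any 1 of 18 of the 20 libraries was left out, at 0.0519 to 0.211, and 0.0101 and 0.0104 without either DMSO library of HGC27.

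No change of SOX2 was detected in SNU719, at 413 and 393 in DCB-treated cells, against 430.1 and 389 in DMSO (log2 fold change −0.02, SE 0.177, adjusted p = 0.989). In HGC27 the gene was near 0, at 3.93 and 3.89 in DCB-treated cells, against 2.30 and 1.21 in DMSO, and passed as higher (log2 fold change 0.86, SE 0.177, adjusted p = 0.00253). That call rests on about 9 reads in DCB and 3 in DMSO, a ratio of 2.42 with an exact 95% counting interval of 0.605 to 13.9, which includes 1. Fitted on the 4 HGC27 libraries alone, its adjusted p was 0.189. The summed epithelial markers of HGC27 were also higher in DCB, as were those of AGS, and their part in the SOX2 and FOXA2 values of these lines was not tested. The response differed among lines (adjusted p = 0.00016) and between CIMP+ and CIMP− lines (−0.82, SE 0.161, adjusted p = 0.00223), and with lines as replicates the CIMP comparison had an adjusted p of 0.759. The 2 tested genes within 500 kb of the SOX2 start, AC125613.1 and LINC01206, passed in no line.

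Among other SOX genes, 5 of 15 tested were higher over the 5 lines and 2 lower, against 17.9% and 6.94% of all genes, with a median log2 fold change of 0.64 beside 0.15 over all genes. SOX9, a progenitor factor of intestine and stomach, was high in YCCEL1, SNU719 and AGS and passed in none of them. It was 60.2 and 60.1 in DCB-treated SNU16, against 23.7 and 24.7 in DMSO (log2 fold change 1.28, SE 0.287, adjusted p = 0.0158), and 22.6 and 35.0 in DCB-treated HGC27, against 5.76 and 15.7 in DMSO (log2 fold change 1.46, SE 0.287, adjusted p = 0.0019). Of 8 pluripotency factors tested, a group in which SOX2 also acts in embryonic stem cells, 5 were higher over the 5 lines and none lower, against 17.9% and 6.94% of all genes, with a median of 1.30 beside 0.15. By line, 2 of the 8 were higher in YCCEL1, 1 in SNU719, 6 in AGS, 3 in HGC27 and 1 in SNU16. The shares of all genes called higher were 14.6%, 13.5%, 18.5%, 14.7% and 4.5% in the same lines. The medians of the list were 0.72, 0.40, 2.91, 0.83 and 1.36.

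FOXA2 (chr20:22580998-22585455) moved in opposite directions in different lines. It rose in SNU16, at 604 and 612 in DCB-treated cells, against 373 and 356 in DMSO (log2 fold change 0.74, SE 0.121, adjusted p = 0.00187). It fell in SNU719, at 489.8 and 486 in DCB-treated cells, against 645 and 676 in DMSO (log2 fold change −0.44, SE 0.121, adjusted p = 0.019). The libraries of the 2 treatments did not overlap in either line, with a mean 66.7% higher in SNU16. The SNU719 call was lost without any 1 of its 4 libraries (adjusted p = 0.0602 to 0.105). In YCCEL1 it was 697 and 751 in DCB-treated cells, against 892 and 914 in DMSO (log2 fold change −0.32, SE 0.121, adjusted p = 0.0799), and in AGS 204 and 206 in DCB-treated cells, against 212 and 212 in DMSO (log2 fold change −0.05, SE 0.121, adjusted p = 0.847).

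HGC27 had little FOXA2, at 7.62 and 9.79 in DCB-treated cells, against 5.93 and 4.98 in DMSO (log2 fold change 0.58, SE 0.121, adjusted p = 0.00271). This rests on about 20 reads in DCB and 9 in DMSO, a ratio of 1.79 with an exact 95% counting interval of 0.781 to 4.48, and the adjusted p was 0.364 in the 4 HGC27 libraries alone. The FOXA2 response differed among lines (adjusted p = 0.000251). It was lower in EBV+ than in EBV− lines, with a difference of −0.80 on the log2 scale (SE 0.110, adjusted p = 0.000154) and lower in CIMP+ than in CIMP− lines, with a difference of −0.93 (SE 0.110, adjusted p = 3.89e-05). The EBV and CIMP comparisons share their libraries. In these 3 comparisons 34.2%, 19.7% and 21.8% of all genes passed, and 5, 2 and 3 of the 8 factors. With lines as replicates the adjusted p of FOXA2 was 0.782 for EBV and 0.617 for CIMP.

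FOXA1, the close relative of FOXA2, did not follow it. It was 574 and 632 in DCB-treated SNU16, against 1027 and 1291 in DMSO (log2 fold change −0.93, SE 0.172, adjusted p = 0.00432), the line where FOXA2 rose. It also fell in AGS (log2 fold change −0.76, SE 0.172, adjusted p = 0.00445) and in YCCEL1 (log2 fold change −0.69, SE 0.172, adjusted p = 0.0103). LINC00261, a long noncoding RNA beside FOXA2, was 554 and 634 in DCB-treated SNU16, against 519 and 565 in DMSO (log2 fold change 0.13, SE 0.669, adjusted p = 1). It passed in no line.

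HNF4A (chr20:44355700-44434596) passed in no line. It was 1544 and 1469 in DCB-treated SNU719, against 1662 and 1763 in DMSO (log2 fold change −0.18, SE 0.112, adjusted p = 0.299). It was 829 and 902 in DCB-treated SNU16, against 985 and 985 in DMSO (log2 fold change −0.19, SE 0.112, adjusted p = 0.429). It was 787 and 687 in DCB-treated YCCEL1, against 859.7 and 849 in DMSO (log2 fold change −0.22, SE 0.112, adjusted p = 0.211). It was 585 and 575 in DCB-treated AGS, against 663 and 680.3 in DMSO (log2 fold change −0.21, SE 0.112, adjusted p = 0.196). In each of these lines both DCB libraries lay below both DMSO libraries, with changes of the mean between −13.8% and −12.1%. In HGC27 it was at about 1 in every library, some 3 reads in DCB and 2 in DMSO, so no difference was detectable at this depth.

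Of the other hepatic and endodermal factors, 2 of 15 tested were higher over the 5 lines and 1 lower, near the 17.9% and 6.94% of all genes, with a median log2 fold change of 0.34 beside 0.15. HNF4G, a paralogue of HNF4A, was the lower one, at −0.89 (SE 0.234, adjusted p = 0.00941), and fell most in AGS, at 5.28 and 6.04 in DCB-treated cells, against 46.4 and 29.1 in DMSO (log2 fold change −2.51, SE 0.314, adjusted p = 3.91e-05).

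Among genes known as HNF4A targets in liver, several rose while HNF4A did not pass. Of 17 tested, 8 were higher over the 5 lines and none lower, against 17.9% and 6.94% of all genes, with a median log2 fold change of 0.95 beside 0.15. By line, 6 of the 17 were higher in YCCEL1, 7 in SNU719, 2 in AGS, 2 in HGC27 and 3 in SNU16, where 14.6%, 13.5%, 18.5%, 14.7% and 4.5% of all genes were. In AGS and HGC27 the share was thus no larger than that of all genes. In AGS 2 were lower, where 9.13% of all genes were, and none was lower in the other lines. SERPINA1, the alpha-1 antitrypsin gene, was the highest of them over the 5 lines at 3.32 (SE 0.452, adjusted p = 4.95e-05), and was chosen as an example after its values were seen.

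KLF5 (chr13:73054976-73077541) fell in AGS, at 1507 and 1597 in DCB-treated cells, against 2286 and 2912 in DMSO (log2 fold change −0.73, SE 0.245, adjusted p = 0.0392). The adjusted p was 0.0556 without the filter on low values and 0.0758 without the variance trend. It was above 0.05 when any 1 of 13 libraries was left out, at 0.0502 to 0.238. Those were AGS DMSO replicate 2, both AGS DCB libraries, all 4 of YCCEL1, both DCB libraries of SNU719 and of HGC27, and both DMSO libraries of SNU16. It was 1740.2 and 1702 in DCB-treated YCCEL1, against 2586 and 2429 in DMSO (log2 fold change −0.54, SE 0.245, adjusted p = 0.146), also without overlap. In SNU719 one DMSO library stood above the other 3, with 2283 and 2271 in DCB-treated cells and 3276 and 2108 in DMSO (log2 fold change −0.21, SE 0.245, adjusted p = 0.638). In SNU16 the DCB libraries split widely, with 1303 and 2615 in DCB-treated cells and 1412 and 1397 in DMSO (log2 fold change 0.39, SE 0.245, adjusted p = 0.452). Without the lower SNU16 DCB library the log2 fold change was 0.90 (adjusted p = 0.0193), and without the higher one −0.11. HGC27 had 175 and 184 in DCB-treated cells, against 211 and 198 in DMSO (log2 fold change −0.18, SE 0.245, adjusted p = 0.682).

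KLF4, a differentiation factor of the gut surface, took different directions. It rose in SNU719, at 292 and 310.5 in DCB-treated cells, against 126 and 119.8 in DMSO (log2 fold change 1.28, SE 0.123, adjusted p = 4.99e-06), and in AGS (log2 fold change 0.70, SE 0.123, adjusted p = 0.000675). It fell in HGC27 (log2 fold change −0.55, SE 0.123, adjusted p = 0.0046) and in SNU16 (log2 fold change −0.44, SE 0.123, adjusted p = 0.0471). Of 25 KLF and SP relatives of KLF5, 5 were higher over the 5 lines and 1 lower, near the 17.9% and 6.94% of all genes, with a median of 0.22 beside 0.15.

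Factors that place cells along the gut were read beside SOX2. CDX1, an intestinal factor, was 9.11 and 7.10 in DCB-treated YCCEL1, against 0 and 0 in DMSO, where it was listed at 0 (adjusted p = 0.000205). It was 12.6 and 6.22 in DCB-treated SNU719, against 0 and 1.11 in DMSO (adjusted p = 0.000643). It also passed in AGS, at 2.79 and 5.56 in DCB-treated cells, against 0 and 0 in DMSO (adjusted p = 0.00179). In HGC27 it was 3.26 and 7.38 in DCB-treated cells, against 1.33 and 1.40 in DMSO, and fell just short (adjusted p = 0.0512). In SNU16 it was 936 and 989 in DCB-treated cells, against 1009.9 and 1058 in DMSO, with no change detected (log2 fold change −0.10, adjusted p = 1). CDX2, a related CDX factor, rose in HGC27, at 51.2 and 42.6 in DCB-treated cells, against 14.3 and 10.8 in DMSO (log2 fold change 1.83, SE 0.204, adjusted p = 1.57e-05), and passed in no other line. PDX1, a factor of antrum and pancreas, fell in SNU719, at 358 and 371 in DCB-treated cells, against 904 and 858 in DMSO (log2 fold change −1.27, SE 0.147, adjusted p = 2.77e-05), and in AGS (log2 fold change −0.67, SE 0.147, adjusted p = 0.00344). BARX1, a stomach mesenchyme factor, was 15.8 and 16.4 in DCB-treated HGC27, against 1.21 and 3.80 in DMSO (adjusted p = 0.0198). BARX1 also passed as higher in AGS, with a mean of 4.94 (SD 2.74) in DCB-treated cells, and was listed at 0 in DMSO (adjusted p = 0.0139). It passed in no other line, and was higher over the 5 lines (log2 fold change 1.22, SE 0.387, adjusted p = 0.0273). Of 29 gastric and intestinal factors, 8 were higher over the 5 lines and 1 lower, or 10 and 0 with equal library totals, against 17.9% and 6.94% of all genes, with a median of 0.26 beside 0.15.

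In DMSO the factors differed widely between lines. Over 8 factors and 10 pairs of lines, 66 of 80 comparisons passed, where 40.4% of such comparisons over all genes did. GATA4 had a separate level in every line, in the order AGS, SNU16, YCCEL1, HGC27 and SNU719, and all 10 pairs passed. FOXA2 was likewise separate in all pairs, in the order YCCEL1, SNU719, SNU16, AGS and HGC27. For SOX2 the order was YCCEL1, SNU719, AGS, SNU16 and HGC27, and the neighbours SNU719 and AGS did not differ beyond their spread (adjusted p = 0.116). For HNF4A it was SNU719, SNU16, YCCEL1, AGS and HGC27, and SNU16 and YCCEL1 did not differ (adjusted p = 0.188).

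GATA6 was highest in SNU719, followed by AGS, SNU16, YCCEL1 and HGC27, and the first 3 did not differ among themselves (adjusted p = 0.0652 to 0.621). KLF5 did not differ among SNU719, AGS and YCCEL1 (adjusted p = 0.973 to 1) and was lower in SNU16 and lowest in HGC27. GATA5 was higher in YCCEL1 than in AGS (log2 difference 1.88, adjusted p = 0.00607) and listed at 0 in the other 3. RUNX3 ran the other way to these, with HGC27 above SNU16 (log2 difference 1.29, adjusted p = 0.0173) and the other 3 lines at or near 0. By mean level HGC27 was the lowest line for HNF4A, FOXA2, SOX2, GATA6 and KLF5 and the highest for RUNX3.

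Across the 10 groups of line and treatment, HNF4A, FOXA2, SOX2, GATA6 and KLF5 moved together, with pairwise Pearson r of 0.878 to 0.979. Without the 2 groups of HGC27, over 8 groups, the same 10 pairs ran between −0.69 and 0.74, so these correlations rest on that line. RUNX3 kept a negative r with KLF5 (−0.75 over 10 groups and −0.86 over 8) and with SOX2 (−0.76 and −0.79). The groups share lines and a normalization, and these values are descriptions.

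The genes whose levels were most like those of each factor over the 10 groups were found in the same way. They were picked by r from all tested genes, so the height of r is not a test. For GATA5 they were C5orf38, IRX2 and HLA-DQB2, with r of 0.996, 0.988 and 0.973. For RUNX3 they were ITM2C, NETO2 and RAB34 (0.986, 0.985 and 0.982), and for GATA4, EMC10, SRSF11 and AKR1B1 (0.949, 0.948 and 0.928). These 9 values stayed at 0.926 or above without HGC27. For HNF4A they were MARVELD3, BSPRY and CLDN4 (0.999, 0.998 and 0.998), for SOX2, CARD10, EVPL and SRC (0.993, 0.992 and 0.991), and for FOXA2, TUBA5P, MLH3 and P4HTM (0.993, 0.989 and 0.988). For GATA6 they included IFIH1 and GBP3 (0.978 each), and for KLF5, RAB20, AC092306.1 and MTUS1 (0.988, 0.988 and 0.987). Without HGC27, r was 0.851 to 0.930 for these genes of HNF4A, SOX2 and FOXA2. For the genes named for GATA6 and KLF5 it was 0.690 to 0.804.

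The tested genes within 500 kb of RUNX3, GATA4 and KLF5 are described by their counts. Of all genes tested, 14.6% were called higher in YCCEL1, 13.5% in SNU719 and 18.5% in AGS. The shares called lower in the same lines were 6.93%, 7.64% and 9.13%. Around RUNX3, 16 tested neighbours had median log2 fold changes of 0.04 in YCCEL1, −0.03 in SNU719 and 0 in AGS, with 1, 0 and 1 higher and 3, 2 and 3 lower. Around GATA4, 16 neighbours had a median of 0.15 in AGS and 0.23 in SNU719, with 4 and 3 higher and 1 lower in each. One of them, C8orf49, named after its values were seen, fell in AGS (log2 fold change −2.56, adjusted p = 0.000853). Around KLF5 there were 5 neighbours, of which none was higher and 1 lower in AGS, and none higher and 2 lower in SNU719, with medians of −0.04 and −0.86. The median of the pair of genes near SOX2 was −0.51 in SNU16, where neither passed.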

How the data were processed

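RNA sequencing of 5 gastric cancer cell lines, with DCB or DMSO and 2 libraries per group, was analysed from 1 deposited table. The authors deposited a signal that names no unit, read here as normalized estimated counts, of which 34.8% to 44.5% of the low values in a library were whole multiples of a step (within 0.02 of a step), so no count test was run. The submitters' notes name NEBNext Ultra poly(A) libraries, STAR (2.5.2b), featureCounts (1.5.1) and DESeq2 (1.14.1), with no roles, and the GRCh37 build, and the study's methods name 3′ QuantSeq libraries and GRCh38. Coordinates follow GRCh38: start and end were identical to GENCODE for 92.6% of 60064 matched genes. The study's methods name MKN74 where the labels name HGC27, and the labels were followed.

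Values were tested as log2(value + 1) with limma 3.58.1 (lmFit, eBayes with trend) in R 4.3.3, keeping 27350 genes with a total above 10 over the 20 libraries. One fit had 10 groups of line and treatment. Effects over the 5 lines came from a fit with a term for the line. P-values were adjusted by Benjamini and Hochberg's method over all genes of a comparison. The sensitivity of these choices was tried with other pseudocounts, filters, scalings and fits and by leaving out each library. The methods were tested on simulated data. Promoter windows were taken from RefSeq, and correlations used group means of log2 values. Intervals of read ratios are exact binomial intervals. Python 3.11.15 with pandas 2.3.3, scipy 1.17.1 and matplotlib 3.10.9 served for intervals and plots. The factors and gene lists were chosen with earlier results of these data known. Besides the 8 factors, the rule named selected relatives, overlapping long noncoding RNAs, the 3 most correlated genes of each factor and neighbours where fewer than 4 lay within 500 kb. Some genes that the rule named are not reported here.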

Additional observations from a re-analysis of the deposited data

Results flagged for a closer look

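The response to DCB differed among the 5 lines for 5 of the 8 factors by the moderated F test of limma, which 34.2% of all genes passed. The adjusted p was 0.0215 for GATA4, 0.00346 for GATA6, 0.000251 for FOXA2, 0.00016 for SOX2 and 8.4e-05 for RUNX3. RUNX3 was higher in DCB in YCCEL1, SNU719 and AGS, and no change was detected in HGC27 and SNU16. FOXA2 was higher in DCB in SNU16. It passed as higher in HGC27 on about 20 reads in DCB and 9 in DMSO (adjusted p = 0.364 in the 4 HGC27 libraries alone), and as lower in SNU719, where the call was lost without any 1 of its 4 libraries and with the replicate block (adjusted p = 0.0757). Between EBV+ and EBV− lines the response differed for FOXA2 (adjusted p = 0.000154) and RUNX3 (adjusted p = 0.000136), where 19.7% of all genes passed. Between CIMP+ and CIMP− lines it differed for FOXA2 (adjusted p = 3.89e-05), SOX2 (adjusted p = 0.00223) and RUNX3 (adjusted p = 1.15e-05), where 21.8% passed. These tests took the libraries as replicates. With the lines as replicates in limma the adjusted p was 0.782 and 0.761 for EBV. For CIMP it was 0.617, 0.759 and 0.239, in the same order of factors.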

How the results depend on the processing

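Counts of factors passing are given here. With an absolute log2 fold change above 2 also required, 1 factor passed in YCCEL1, SNU719 and AGS, none in HGC27 and SNU16, and 1 over the 5 lines, in the EBV difference and in the CIMP difference. Of the 80 comparisons between lines in DMSO, 36 passed. In SNU16, 1 factor passed with a pseudocount of 0.5, no filter, equal library totals, no variance trend or the 4 libraries of the line alone. In HGC27 its 4 libraries alone gave 0 in limma, with 0 at an unadjusted p below 0.05. With lines as replicates limma gave 0 over the 5 lines, for EBV and for CIMP, with 2, 0 and 2 at an unadjusted p below 0.05. When any 1 library was left out, 2 to 3 factors passed in YCCEL1, 3 to 4 in SNU719, 3 to 5 in AGS, 2 to 4 in HGC27, 1 to 3 in SNU16, 2 to 3 over the 5 lines, 2 for EBV and 3 to 4 for CIMP. The F test gave 4 to 6 and the DMSO comparisons 62 to 68. No called value changed its direction under any of these settings.

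Same-numbered DCB and DMSO libraries did not deviate together (r across genes of −0.04 to 0.03 in the 5 lines), so the replicate numbers do not pair them. With the replicate block, 1 factor passed in SNU16, and FOXA2 in SNU719 had an adjusted p of 0.0757.

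Some factors that did not pass did so under another setting. With a pseudocount of 5 these were FOXA2 in YCCEL1 (adjusted p = 0.0411) and SOX2 over the 5 lines (0.0357), and with the 4 libraries of the line alone KLF5 in YCCEL1 (0.0261) and HNF4A in AGS (0.0487). With 1 library left out they were FOXA2 in YCCEL1 without either DCB library of HGC27 (adjusted p = 0.032 and 0.0325), KLF5 in YCCEL1 without either DCB library of SNU16 (0.0268 and 0.0269), GATA6 in AGS (0.033 and 0.0326) and in SNU16 (0.0302 and 0.0298) without either DMSO library of HGC27, GATA5 (0.026) in HGC27 without its DCB replicate 2, and GATA6 in HGC27 (0.026) without its DMSO replicate 2. Over the 5 lines SOX2 passed without HGC27 DMSO replicate 2 (0.0304) and KLF5 without SNU16 DCB replicate 2 (0.0069). In the CIMP difference GATA6 passed without HGC27 DMSO replicate 2 (0.0287), and KLF5 without SNU719 DMSO replicate 2 (0.0309) or SNU16 DCB replicate 1 (0.00192).

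Scaling to equal library totals moved the median log2 fold change of all genes in HGC27 to 0.16, against 0.04. Correlations without HGC27 were added after seeing the data. Near 0, a few reads set each value of RUNX3, SOX2, FOXA2 and HNF4A, and 2 libraries per group and 5 lines limit every comparison.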
